A study of Mus musculus with 6 samples.

Results

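The genes described here encode the non-collagen part of the extracellular matrix of fat: adhesive glycoproteins, proteoglycans, elastic fibre and basement membrane proteins, and the enzymes that process and crosslink collagen. The 59 genes were taken by symbol from a table of 22322 genes, and all 59 were found there. They were chosen with earlier results of these data known. Epididymal white fat was profiled by sequencing of mRNA in 6 libraries, 3 from wild type mice and 3 from CD44-KO mice, all after 17 weeks on a high fat diet. Both genotypes thus share the diet, and lean mice were not analysed here. The sources used here do not give age, strain, the knockout allele or the cells it reaches, nor say that libraries came from separate animals, so the p-values measure only the spread between these samples.

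Fat cells and the stromal cells between them sit in an interstitial matrix of collagen fibrils, fibronectin and proteoglycans, and each fat cell is wrapped in a basement membrane of laminins, nidogens and perlecan. Lysyl oxidases crosslink collagen and elastin outside the cell, while lysyl and prolyl hydroxylases modify collagen chains before secretion. The receptor CD44 sits on many cell types and binds hyaluronan, the sugar polymer to which versican and aggrecan attach. Growth of fat in obesity is known to be accompanied by remodelling of this matrix.

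Total expected counts per library (the authors' estimates of reads per gene) ran from 15543317 to 18765009. Cd44 itself had 44.1, 144 and 78.8 FPKM in wild type replicates 1 to 3 against 0.36, 0.59 and 0.43 in CD44 KO replicates 1 to 3, so each library matched its label. FPKM are the authors' values scaled for transcript length and library depth, and levels of different genes are compared here only on that scale. CPM are counts scaled to library size after adjusting libraries by the trimmed mean of M-values. The adipocyte genes Adipoq and Plin1 were present in every library, at 702 to 3481 and 433 to 2628 CPM. CD44 KO replicate 2 also held RNA of epididymis genes, with 14162 CPM summed over 14 genes against 1.13 to 13.9 in the other 5 libraries.

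Many non-collagen matrix genes had lower levels in fat without CD44. The median of the tested members of each of the 7 roles was below wild type in all 3 knockout libraries, by least for the basement membrane genes. For the hyaluronan-binding proteoglycans that median is 1 tested gene, Vcan, which was not called. Fibronectin (Fn1) stood 5.01-fold lower, periostin (Postn) 4.93-fold, biglycan (Bgn) 3.74-fold, hemicentin 2 (Hmcn2) 14.7-fold and the procollagen C-proteinase enhancer Pcolce2 10.3-fold. Decorin (Dcn), prolargin (Prelp), elastin (Eln) and the laminin and nidogen genes did not pass the test. Thrombospondin 2 (Thbs2) and the laminin chain gene Lamb2 had positive fold changes that did not pass either.

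Of the 59 genes, 57 passed the low-count filter and were tested, and 11 were called lower and 0 higher in CD44 KO by edgeR's quasi-likelihood test at a Benjamini-Hochberg adjusted p under 0.05. That is 19.3% of the tested members, where 0.882% of all 13829 genes tested were called lower and 1.74% higher (2.62% in either direction). The filter depends on expression in either group, so the 57 are not all members. Because members were chosen with earlier results of these data known, these shares are a description and not a test. At an unadjusted edgeR p under 0.05, 34 members were lower and 2 higher, against 14.7% and 16.3% of all genes. DESeq2 called 32 lower and 1 higher, where over all genes it called 1463 lower and 1463 higher. Negative log2 fold changes were seen in 47 of 57, where 47.8% of all genes were negative, and 31 were at least 2-fold lower, as were 11.6% of all genes. The median log2 fold change of the tested members was -1.22, beside 0.03 for all genes. In 35 members every CD44 KO library lay below every wild type library, and in 2 above, against 18.1% and 19.7% of all genes (37.8% in either direction). The authors' deposited table lists 32 members as lower and 1, Lamb2, as higher at an adjusted p under 0.05, where it lists 5.94% and 6.07% of all its genes.

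**Figure D1:**
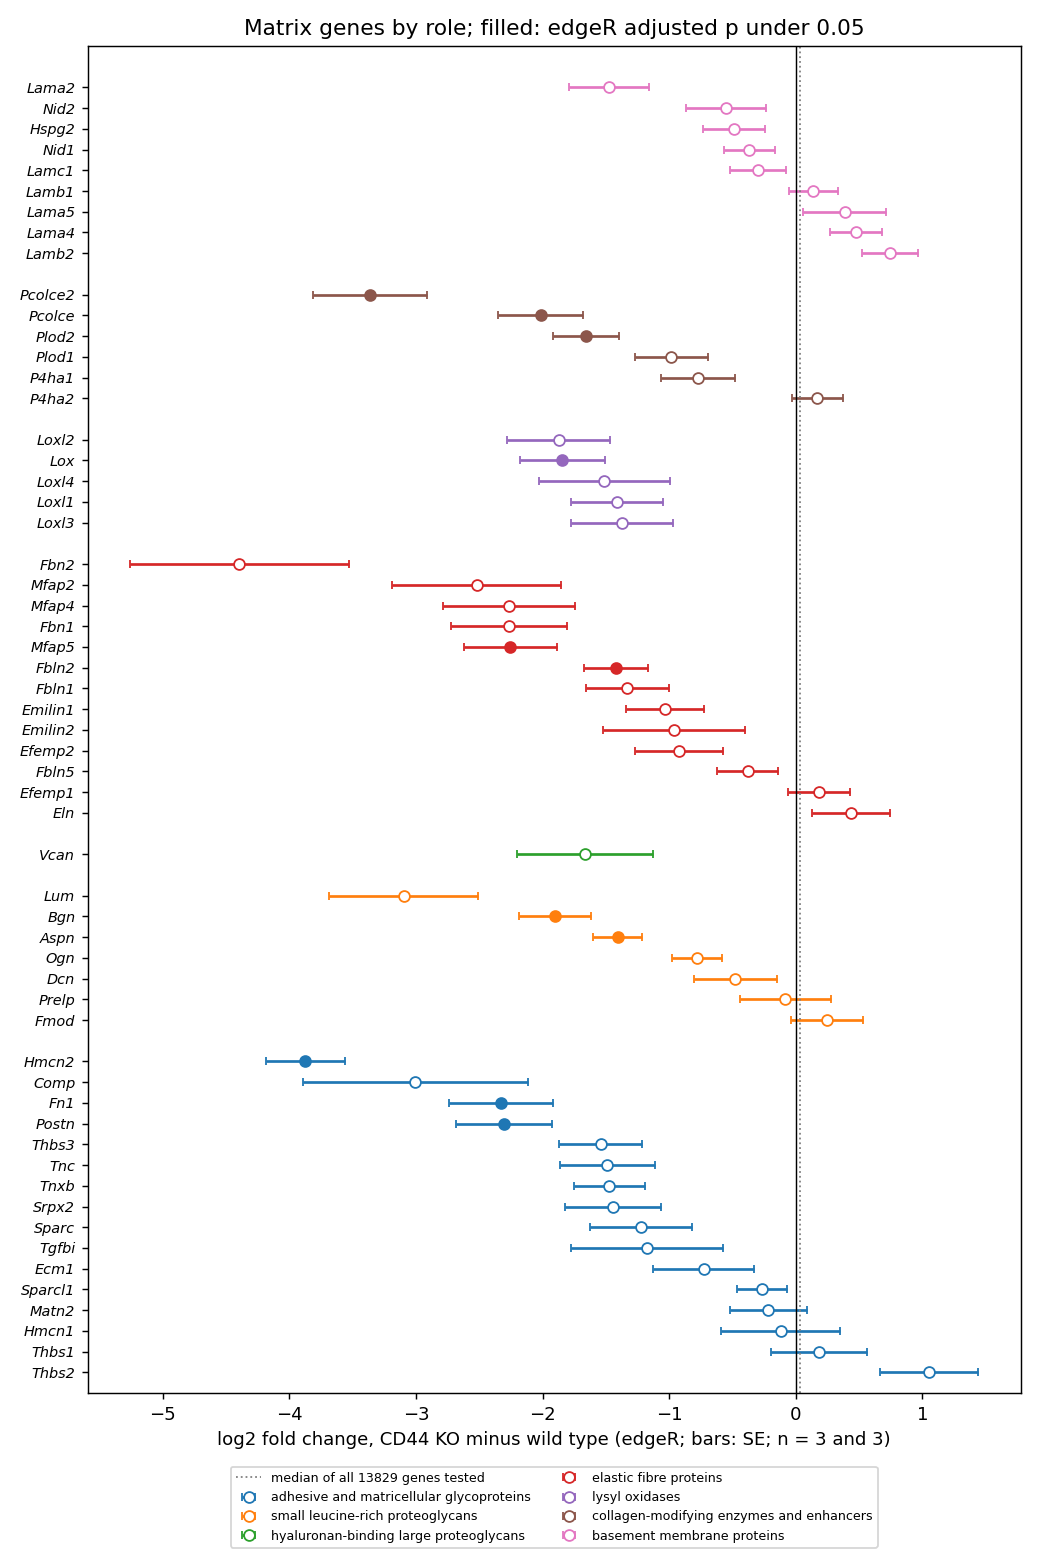
Log2 fold change (CD44 KO minus wild type, edgeR) on the x axis for each of the 57 tested genes, grouped and coloured by role, with SE bars. Filled points are the 11 genes called lower, and all 5 lysyl oxidases lie left of -1 while the basement membrane genes run from -1.47 to 0.75.

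The calls depended on single libraries, while the members' median stayed negative. Thbs1, Matn2, Hmcn1, Prelp and Lamb1, all near 0, changed sign with a library left out. With 1 wild type library left out edgeR called 6 members lower (replicate 1 omitted) or 0 (replicate 2 or 3 omitted). With 1 knockout library left out it called 32 (replicate 1 omitted), 3 (replicate 2) or 0 (replicate 3). Of the 11 main calls, 6, 0 and 0 were kept without wild type replicates 1 to 3. Without CD44 KO replicates 1 to 3, 11, 2 and 0 were kept. Over all genes the fits without wild type replicates 1 to 3 called 62, 7 and 0 lower and 248, 2 and 0 higher. Those without CD44 KO replicates 1 to 3 called 1363, 36 and 2 lower and 1007, 64 and 5 higher. The member counts thus moved with the calls over all genes. In these 6 fits 29 to 38 members had an unadjusted edgeR p under 0.05 and were lower, and the median log2 fold change ran from -1.50 to -0.99. All 11 called members stayed negative, but each already had every knockout library below every wild type library. Their sign could therefore not turn when a library was left out. On the log2 CPM scale, the median difference of the members in a wild type library from the mean of the other two was -0.07, 0.02 and -0.01 for replicates 1 to 3. These medians do not describe single members, some of which, such as Sparc and Prelp, varied widely between wild type libraries. Set against the wild type mean, the members' median was -0.78 in CD44 KO replicate 1, -1.67 in replicate 2 and -1.16 in replicate 3. CD44 KO replicate 1 was the highest knockout library for 39 of the 57 members, and replicate 2 the lowest for 42.

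Promoters are shown for 4 of the 11 called genes, as a description only. Whether the called genes share a regulator was not tested. They were read from RefSeq (GRCm38.p6), which had a promoter for 40 of the 59 members and 7 of the 11 called. Each run is the 250 bases before the start site, 5′ to 3′ on the gene's strand. Capitals mark matches on either strand to any of 5 short motifs: CAGAC, the core of a SMAD-binding element; TGANTCA, bound by AP-1; GGAATG, bound by TEAD factors; TATAAA, the TATA box; and GGGCGG, the GC box bound by SP1. Matches can overlap, and a gene with several starts counts once if any of them matches.
Postn, chr3:54360857-54361106, plus strand: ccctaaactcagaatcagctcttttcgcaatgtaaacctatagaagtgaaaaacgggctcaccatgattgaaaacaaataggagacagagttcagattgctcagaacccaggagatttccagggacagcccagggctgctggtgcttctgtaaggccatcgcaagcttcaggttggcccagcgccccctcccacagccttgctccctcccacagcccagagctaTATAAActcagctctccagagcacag
Bgn, chrX:73483351-73483600, plus strand: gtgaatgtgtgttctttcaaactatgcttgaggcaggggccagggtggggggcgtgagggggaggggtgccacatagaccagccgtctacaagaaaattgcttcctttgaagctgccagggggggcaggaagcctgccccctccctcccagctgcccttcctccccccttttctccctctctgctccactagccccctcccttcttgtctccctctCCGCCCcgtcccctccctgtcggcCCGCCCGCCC
Aspn, chr13:49544193-49544442, plus strand: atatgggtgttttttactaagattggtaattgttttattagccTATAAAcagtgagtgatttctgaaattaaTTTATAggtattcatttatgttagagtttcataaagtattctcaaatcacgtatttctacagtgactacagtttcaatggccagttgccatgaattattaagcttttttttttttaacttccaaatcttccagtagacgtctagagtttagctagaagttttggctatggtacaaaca
Pcolce2, chr9:95637378-95637627, plus strand: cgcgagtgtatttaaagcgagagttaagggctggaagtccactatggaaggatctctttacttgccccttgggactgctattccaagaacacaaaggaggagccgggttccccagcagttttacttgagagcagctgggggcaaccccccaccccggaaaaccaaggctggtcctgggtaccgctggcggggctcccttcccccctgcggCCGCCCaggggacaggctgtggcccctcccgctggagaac
The Postn run has a TATAAA match that begins 26 bases before the start, and RefSeq gives Postn a second start further upstream that is not shown. Bgn has 3 GC box matches close to its start and Pcolce2 has 1. The Aspn run is AT-rich, with 30.0% G and C, and has 2 TATAAA matches, both far upstream of the start. Of the 40 members 26 (65.0%) had a GC box match, against 35.4% of 27018 genes with a promoter, and their median G and C content was 59.0% against 52.4%. Those 27018 genes include many not expressed enough to be tested here, so the sets are not matched for expression, and no share was tested. CAGAC matched in 57.5% of members and 45.8% of all genes, TGANTCA in 12.5% and 7.82%, GGAATG in 17.5% and 14.4%, and TATAAA in 17.5% and 14.3%. Among the 7 called genes CAGAC matched in 1, TGANTCA in 1, GGAATG in 0, TATAAA in 2 and GGGCGG in 4.

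Among the 17 adhesive and matricellular glycoproteins, 3 fell, Fn1, Postn and Hmcn2, where 0.882% of all genes tested were called lower. Of the 16 tested, 14 had negative fold changes, where 47.8% of all genes did, with a median log2 fold change of -1.33. Fn1 (ENSMUSG00000026193, chromosome 1, 71585520 to 71653200, minus strand; all gene positions are those of GENCODE M21 on GRCm38, matched by identifier) encodes fibronectin, a scaffold for cell adhesion and collagen assembly. Its level was 106, 164 and 114 FPKM in wild type replicates 1 to 3 against 35.3, 11.7 and 24.4 in CD44 KO. The groups did not overlap, and CD44 KO replicate 2 was lowest. The log2 fold change of Fn1 was -2.33 (SE 0.41, edgeR adjusted p 0.0462).

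Postn (ENSMUSG00000027750, chromosome 3, 54361109 to 54391037), which encodes periostin, a matricellular protein that binds integrins and collagen, had 127, 245 and 176 FPKM in wild type against 52.9, 25.4 and 37.7 in CD44 KO. Every knockout library was below every wild type library, at log2 fold change -2.30 (SE 0.38, edgeR adjusted p 0.0409). Hmcn2 (ENSMUSG00000055632, chromosome 2, 31314415 to 31460738), a hemicentin gene, was far less abundant, at 3.69, 2.26 and 2.11 FPKM in wild type against 0.17, 0.14 and 0.22 in CD44 KO. It had the lowest adjusted p of the members (edgeR adjusted p 0.0126, log2 fold change -3.87, SE 0.31) and was called in 3 of the 6 fits without 1 library. Its relative Hmcn1 had 0.07 to 0.19 FPKM in wild type against 0.14 to 0.42 in CD44 KO, and its log2 fold change of -0.12 (SE 0.47) came with overlapping groups. That sign comes from the counts, while in FPKM its knockout mean was above the wild type mean.

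Sparc, which encodes the collagen-binding protein osteonectin, was the most abundant member. Wild type libraries held 3130, 1482 and 2086 FPKM of it and CD44 KO libraries 1286, 586 and 937. The knockout libraries were all below the wild type ones, but wild type replicate 2 and CD44 KO replicate 1 lay close, and the log2 fold change of -1.22 (SE 0.40) missed the threshold (edgeR adjusted p 0.111). Sparc alone made up 31.7% to 51.2% of the summed FPKM of the 59 genes in wild type against 31.5% to 38.2% in CD44 KO. Without Sparc that sum was 2988 to 3192 FPKM in wild type against 1275 to 2081 in CD44 KO, with no overlap between the genotypes. Sparcl1, its close relative, had 133 to 145 FPKM in wild type against 94.8 to 139 in CD44 KO, with a log2 fold change of -0.26 (SE 0.20).

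Thrombospondins, matricellular proteins that bind integrins and other matrix proteins, had fold changes of both signs. Thbs3 had 7.65, 7.67 and 6.80 FPKM in wild type against 3.29, 1.34 and 3.42 in CD44 KO (edgeR adjusted p 0.0591, log2 fold change -1.54, SE 0.33), with no overlap. Comp, the fifth thrombospondin, known from cartilage and tendon, had 4.14, 1.92 and 7.26 against 0.35, 1.09 and 0.11 FPKM (edgeR adjusted p 0.0975, log2 fold change -3.00, SE 0.89), a wide spread in both genotypes without overlap. Thbs2, whose product is an inhibitor of new vessel growth, had a positive fold change. It had 10.3, 14.9 and 12.7 FPKM in wild type against 12.9, 34.0 and 28.6 in CD44 KO, where replicate 1 lay within the wild type range. Its log2 fold change was 1.05 (SE 0.39, edgeR adjusted p 0.132), and 1.38 without CD44 KO replicate 1, where it was called higher (edgeR adjusted p 0.0246). Thbs1 had 22.8 to 34.7 FPKM in wild type against 19.2 to 49.6 in CD44 KO, with a log2 fold change of 0.18 (SE 0.38). Thbs4 did not pass the filter. It had 6, 23 and 13 counts in wild type against 0 in each CD44 KO library, which makes it at least 12.5-fold lower, taking 3 counts over all knockout libraries as the floor; the bound covers counting error only.

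Tenascins are large glycoproteins that modulate adhesion. Tnc had 5.32, 3.76 and 5.06 FPKM in wild type against 0.96, 1.41 and 2.54 in CD44 KO, with no overlap, log2 fold change -1.49 (SE 0.37) and an edgeR adjusted p of 0.0758. Tnxb, which organises collagen fibrils, had 19.5, 21.9 and 17.0 against 8.41, 4.07 and 7.69 FPKM (edgeR adjusted p 0.0522, log2 fold change -1.47, SE 0.28). Srpx2, also without overlap between the genotypes, had a log2 fold change of -1.44 (SE 0.38). Tgfbi, a matrix protein induced by TGF-beta, and Ecm1, a secreted matrix glycoprotein, lay below their wild type range in only 2 of the 3 knockout libraries. Tgfbi had 49.0 FPKM in CD44 KO replicate 1, within its wild type range of 42.3 to 66.3, and 8.40 and 17.9 in replicates 2 and 3. Ecm1 had 73.4 FPKM in that library, within its wild type range of 66.4 to 95.2, and 21.9 and 38.3 in the others. Their log2 fold changes were -1.17 (SE 0.60) and -0.73 (SE 0.40). Matn2, a matrilin gene, had overlapping groups and a log2 fold change of -0.22 (SE 0.31).

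**Figure D2:**
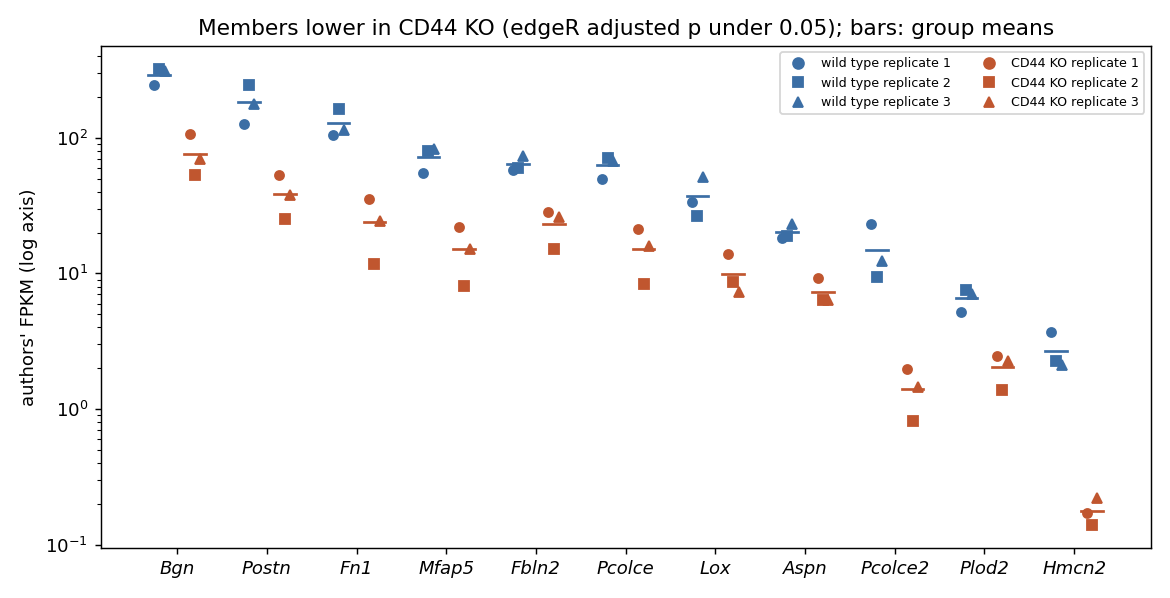
Authors' FPKM on a log axis for the 11 genes called lower, with a point for each of the 3 wild type and 3 CD44 KO libraries and bars at group means. In every gene the highest CD44 KO library lies below the lowest wild type library.

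Small leucine-rich proteoglycans bind collagen fibrils and regulate their assembly. Of the 7 members all were tested and 2 fell, Bgn and Aspn, where 0.882% of all genes tested were called lower. Bgn (ENSMUSG00000031375, chromosome X, 73483602 to 73495933, plus strand) encodes biglycan. Its level was 245, 323 and 309 FPKM in wild type against 106, 53.0 and 69.4 in CD44 KO. All 3 knockout libraries were under the lowest wild type library (edgeR adjusted p 0.0356, log2 fold change -1.90, SE 0.28). Decorin, the closest relative of biglycan, did not pass the test. Dcn had 540, 673 and 658 FPKM in wild type against 558, 238 and 517 in CD44 KO. Replicate 1 of the knockout lay within the wild type range, replicate 3 just under it and replicate 2 far below, and the log2 fold change was -0.48 (95% interval -1.39 to 0.44, edgeR adjusted p 0.345).

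Several genes of this family lie in clusters, and neighbours had fold changes of different size. Lum, which encodes lumican, starts at 97565128 on chromosome 10, and Dcn ends at 97518143 on the same strand. Lum had 119, 174 and 152 FPKM in wild type against 29.9, 5.40 and 15.7 in CD44 KO, with no overlap. The log2 fold change of Lum was -3.10 (SE 0.59), which missed the threshold at an edgeR adjusted p of 0.0522, and without CD44 KO replicate 2 it was -2.69 and called (edgeR adjusted p 0.0497). Within each library the FPKM of Lum was 0.220 to 0.258 of that of Dcn in wild type against 0.0227 to 0.0536 in CD44 KO. For Bgn that ratio to Dcn was 0.453 to 0.480 in wild type against 0.134 to 0.222 in CD44 KO.

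Aspn and Ogn lie in a cluster on chromosome 13, Aspn at 49544443 to 49567565 and Ogn at 49608046 to 49624501, both on the plus strand. Aspn (ENSMUSG00000021388), which encodes asporin, had 18.1, 19.0 and 23.1 FPKM in wild type against 9.21, 6.40 and 6.38 in CD44 KO (edgeR adjusted p 0.0314, log2 fold change -1.41, SE 0.19). Ogn, which encodes osteoglycin, had 34.2 to 37.9 FPKM in wild type against 14.6 to 25.3 in CD44 KO, also without overlap. Its log2 fold change of -0.78 (SE 0.20) did not pass (edgeR adjusted p 0.0753). Aspn lies inside the span of Cenpp on the opposite strand and shares 0.297% of its exonic bases with it. On chromosome 1 Prelp and Fmod, which encode prolargin and fibromodulin, had overlapping groups and log2 fold changes of -0.08 (SE 0.36) and 0.25 (SE 0.28). Prelp had 406, 182 and 206 FPKM in wild type against 279, 258 and 188 in CD44 KO, and its sign changed without wild type replicate 1 and without CD44 KO replicate 3.

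**Figure D3:**
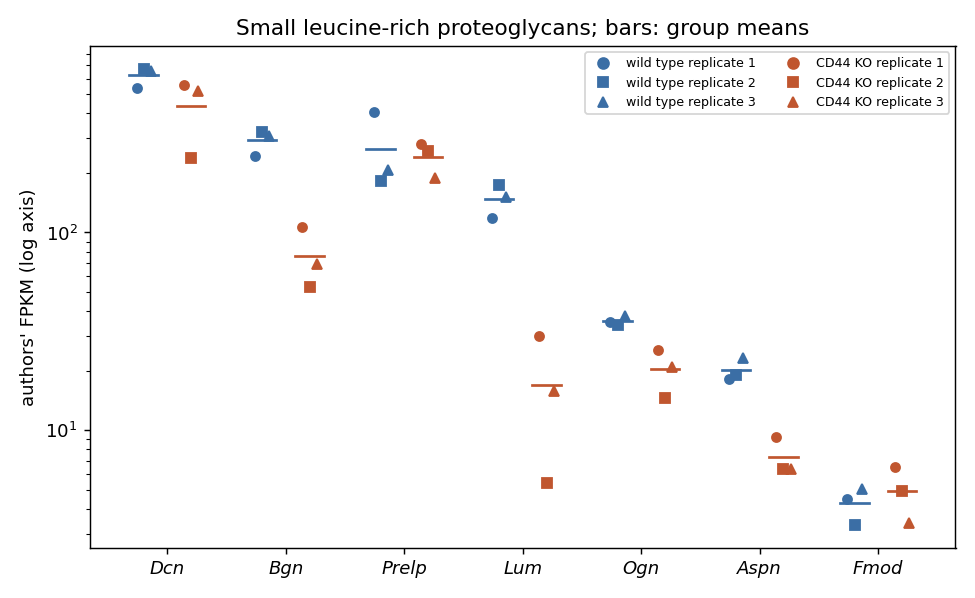
Authors' FPKM on a log axis for the 7 small leucine-rich proteoglycan genes, with a point per library and bars at group means. Bgn, Lum, Ogn and Aspn show no overlap between genotypes, while Dcn, Prelp and Fmod overlap.

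Ratios of FPKM between related members were also taken within each library, for pairs chosen after their values were seen. They are therefore a description with no test. In all 6 ratios taken the genotypes did not overlap. The mean log2 ratio in CD44 KO minus wild type was -1.39 for Bgn to Dcn, -2.82 for Lum to Dcn and -0.61 for Aspn to Ogn. It was -1.90 for Lama2 to Lama4, -2.47 for Thbs3 to Thbs2 and -2.81 for Fbn1 to Eln.

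Versican and aggrecan are large proteoglycans that bind hyaluronan, the ligand of CD44. Vcan had 5.03, 8.21 and 7.17 FPKM in wild type against 3.59, 1.90 and 1.36 in CD44 KO. The groups did not overlap, and the log2 fold change of -1.66 (SE 0.54) did not pass (edgeR adjusted p 0.109). Acan, the cartilage proteoglycan, was not tested, with 3, 0 and 0 counts in wild type against 2, 21 and 2 in CD44 KO, of which the 21 were in replicate 2, the library with epididymis transcripts.

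Elastic fibres consist of an elastin core in a sheath of fibrillin microfibrils, with fibulins and emilins at their surface. All 13 members of this role were tested, 2 fell (Fbln2 and Mfap5), 11 were negative and 9 were lower without overlap. Of all genes tested, 0.882% were called lower, 47.8% were negative and 18.1% were lower without overlap. Mfap5 (ENSMUSG00000030116, chromosome 6, 122505845 to 122529290), a microfibril protein gene, had 54.8, 79.7 and 83.4 FPKM in wild type against 22.0, 8.02 and 15.1 in CD44 KO (edgeR adjusted p 0.0402, log2 fold change -2.25, SE 0.37). Fbln2 (ENSMUSG00000064080, chromosome 6, 91212455 to 91272540), which encodes fibulin 2, had 58.3, 59.7 and 73.1 against 28.3, 15.0 and 26.0 FPKM (edgeR adjusted p 0.0454, log2 fold change -1.42, SE 0.25). For both genes the lowest wild type library was above the highest knockout library.

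Fbn1, which encodes the main fibrillin of microfibrils, had 27.9, 47.5 and 29.4 FPKM in wild type against 10.9, 3.24 and 7.28 in CD44 KO. The groups did not overlap, and the log2 fold change of -2.26 (SE 0.46) missed the threshold at an edgeR adjusted p of 0.0557. A gene on the opposite strand shares 20.1% of the exonic bases of Fbn1, and the sources used here do not give the strand setting of the counting. Fbn2, a fibrillin of developing tissue, was near the detection limit, with 16, 23 and 40 counts in wild type against 1, 2 and 0 in CD44 KO (edgeR adjusted p 0.0529, log2 fold change -4.39, SE 0.86). The microfibril genes Mfap2 and Mfap4 had log2 fold changes of -2.52 (SE 0.67) and -2.26 (SE 0.52), without overlap and without a call. Eln itself had a positive fold change that did not pass the test (edgeR adjusted p 0.358). It had 22.6, 12.7 and 16.3 FPKM in wild type against 29.4, 14.5 and 25.0 in CD44 KO, with overlapping groups and a log2 fold change of 0.43 (95% interval -0.42 to 1.29). Fbln1, Efemp2 and Emilin1 had log2 fold changes of -1.33, -0.92 and -1.03 without overlap, and none was called. Fbln5 and Efemp1, fibulin family genes, overlapped, at -0.38 (SE 0.24) and 0.18 (SE 0.24).

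The lysyl oxidases, copper enzymes that start the crosslinking of collagen and elastin, had negative fold changes throughout the family. In all 5 every CD44 KO library was below every wild type library, the log2 fold changes ran from -1.87 to -1.37, and 1 gene, Lox, was called. Such separation with lower levels was seen in 18.1% of all genes tested, and 0.882% were called lower. Lox (ENSMUSG00000024529) had 33.8, 26.5 and 51.1 FPKM in wild type against 13.9, 8.69 and 7.33 in CD44 KO (edgeR adjusted p 0.0481, log2 fold change -1.84, SE 0.34). Loxl2, which also acts on basement membrane collagen, had 12.8, 20.5 and 14.7 against 6.75, 2.18 and 3.92 FPKM (edgeR adjusted p 0.0633, log2 fold change -1.87, SE 0.41). Loxl1, which is needed for elastic fibre upkeep, stood at -1.41 (SE 0.36), Loxl3 at -1.37 (SE 0.40) and Loxl4 at -1.51 (SE 0.52). Loxl3 shares 11.6% of its exonic bases with Htra2 on the opposite strand, so without a known strand setting its reads cannot be told apart from those of Htra2 there. The family's summed FPKM was 79.0 to 105 in wild type against 17.7 to 41.2 in CD44 KO. At an unadjusted edgeR p under 0.05 all 5 were lower, where 14.7% of all genes were. DESeq2 called all 5, where it called 1463 of all 13829 genes lower.

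Among the enzymes and enhancers that process collagen, 3 of 6 fell, where 0.882% of all genes tested were called lower. Pcolce and Pcolce2 encode enhancers of the proteinase that trims the C-terminal end of procollagen. Pcolce (ENSMUSG00000029718, chromosome 5, 137605103 to 137613784, minus strand) had 50.1, 71.0 and 67.3 FPKM in wild type against 21.3, 8.34 and 16.0 in CD44 KO (edgeR adjusted p 0.0412, log2 fold change -2.02, SE 0.33). Pcolce2 (ENSMUSG00000015354, chromosome 9, 95637601 to 95698096) had 23.0, 9.47 and 12.3 against 1.96, 0.81 and 1.46 FPKM, with wild type replicate 1 well above the other wild type libraries and no overlap. Its log2 fold change was -3.36 (SE 0.45, edgeR adjusted p 0.032).

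Lysyl hydroxylases prepare the lysines that later form crosslinks. Plod2 (ENSMUSG00000032374, chromosome 9, 92542223 to 92608428), which acts on the collagen ends, had 5.20, 7.60 and 7.04 FPKM in wild type against 2.47, 1.38 and 2.27 in CD44 KO (edgeR adjusted p 0.0391, log2 fold change -1.66, SE 0.26). Plod1 stood at -0.98 (SE 0.29, edgeR adjusted p 0.0942), also without overlap. The prolyl hydroxylase subunit genes had opposite signs, P4ha1 at -0.77 (SE 0.29) and P4ha2 at 0.17 (SE 0.20), both with overlapping groups.

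The basement membrane genes had no called member. Of 9 tested, edgeR called 0 and DESeq2 2 (Lama2 lower, Lamb2 higher), the same 2 that had an unadjusted edgeR p under 0.05. At that p 14.7% of all genes were lower and 16.3% higher. Of the 9, 5 were negative, where 47.8% of all genes were, and the median log2 fold change was -0.30. Lama2, the laminin chain of muscle and stroma, had 17.4, 23.5 and 18.3 FPKM in wild type against 8.56, 4.24 and 9.61 in CD44 KO, with no overlap (edgeR adjusted p 0.0594, log2 fold change -1.47, SE 0.31). Lamb2 was higher in every knockout library, at 27.6, 20.5 and 17.9 against 33.5, 30.4 and 41.4 FPKM (edgeR adjusted p 0.096, log2 fold change 0.75, SE 0.22). Lama4, the laminin chain of vessels and fat cells, had a log2 fold change of 0.48 (SE 0.20). Its knockout libraries, at 198 to 271 CPM, were above the wild type ones, at 139 to 190, but in FPKM the groups overlapped.

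Nid1, which links laminin to collagen IV, had 144, 112 and 109 FPKM in wild type against 102, 78.0 and 93.8 in CD44 KO, a log2 fold change of -0.37 (95% interval -0.93 to 0.19, edgeR adjusted p 0.249). Hspg2, which encodes the heparan sulfate proteoglycan perlecan, had 61.3, 44.1 and 40.4 against 27.4, 36.0 and 36.6 FPKM (log2 fold change -0.49, 95% interval -1.18 to 0.20, edgeR adjusted p 0.222). Both had no overlap, yet the gaps between the groups were small beside the spread within them. Lama5, Lamb1, Lamc1 and Nid2 ran from -0.55 to 0.39 with overlapping groups. Whether the basement membrane genes differ from the other roles as a set was not tested.

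By role, CD44 KO replicate 1 was nearest to wild type in 6 of the 7 roles and replicate 2 farthest in all 7, where the hyaluronan-binding role is 1 gene, Vcan. For the lysyl oxidases the median log2 difference from the wild type mean was -1.03, -2.27 and -1.51 in CD44 KO replicates 1 to 3, and for the elastic fibre genes -1.04, -1.80 and -1.25. The adhesive glycoproteins stood at -0.75, -1.71 and -1.22, and the basement membrane genes at -0.23, -0.29 and -0.04. Spread within a group was wider in the knockout, with a median coefficient of variation of 34.6% over the 57 members against 22.4% in wild type. Over these members the wild type FPKM and the log2 fold change had a Spearman rho of 0.08, given as a description across genes measured in the same libraries.

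**Figure D4:**
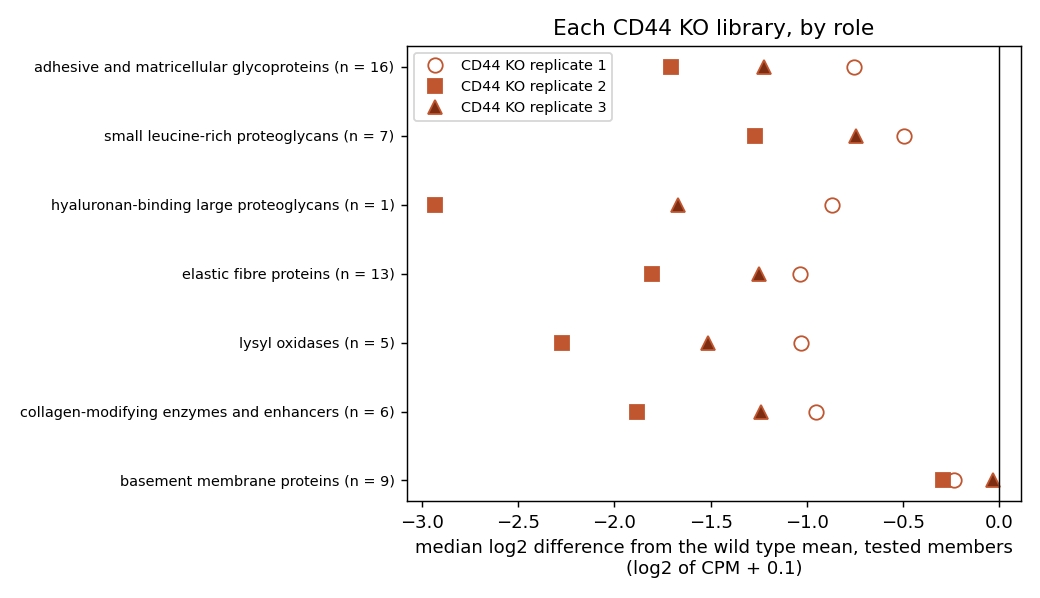
Median log2 difference from the wild type mean (x axis, log2 of CPM + 0.1) of the tested members of each role, with a symbol for each CD44 KO library. Replicate 2 is farthest left in every role, and the basement membrane medians lie between -0.29 and -0.04.

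Related matrix genes outside the 59 varied by group. For comparison, edgeR called 0.882% of all genes tested lower and 1.74% higher. Of 17 tested collagens of fibrils and networks 4 fell and 0 rose (median log2 fold change -1.90), with the lowest p for Col8a1 at -2.38 and Col16a1 at -2.49 (edgeR adjusted p 0.0282 and 0.0402); the others were Col5a2 and Col14a1. Of 17 other collagen-processing and crosslinking genes 1 fell, Bmp1, the procollagen C-proteinase that Pcolce and Pcolce2 enhance (edgeR adjusted p 0.0395, log2 fold change -1.36, SE 0.22). Next to it was Adamts2, which trims the other end of procollagen, at -1.47 (edgeR adjusted p 0.0627), and the median of the 17 was -0.79. Of 12 other elastic fibre genes 2 fell, Fbln7 (-4.66, edgeR adjusted p 0.0323) and Ltbp2 (-1.33, edgeR adjusted p 0.0381), and their median was -0.02. Of 3 tested hyaluronan-binding and link protein genes 1 fell, Ncan, at -3.26 (edgeR adjusted p 0.039), and Hapln4 stood at -3.28 (edgeR adjusted p 0.105).

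Among 6 other small leucine-rich proteoglycan genes 1 rose, Podn, which encodes podocan, from 33.3 ± 6.71 to 122 ± 45.6 CPM (SD, n = 3; log2 fold change 1.87, SE 0.31, edgeR adjusted p 0.0402), and Chadl stood at 1.75 (edgeR adjusted p 0.0886). In 4 lists edgeR called no gene. The baseline for these lists is the 13829 genes tested. An unadjusted edgeR p under 0.05 came with a lower level in 14.7% of them and with a higher level in 16.3%. DESeq2 called 1463 of the 13829 in each direction. Of 16 other laminin and basement membrane genes the unadjusted p was under 0.05 for 3 with lower and 5 with higher levels, and DESeq2 called 2 and 2. By the same unadjusted p, of 29 genes of glycosaminoglycan chain synthesis 9 were lower and 0 higher, and DESeq2 called 7 lower. Of 16 integrin and other matrix receptor genes 7 were lower and 1 higher, and DESeq2 called 5 and 1. Of 14 genes of TGF-beta signalling 4 were lower and 1 higher, and DESeq2 called 3 lower. The receptor gene Tgfbr2 stood at -0.75 and Tgfbr1 at -1.25 (edgeR adjusted p 0.07 and 0.0773).

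Summed levels of cell type markers also differed between the libraries. In bulk tissue fewer cells of a type and less RNA per cell cannot be told apart. For all genes tested, 47.8% were negative, edgeR called 0.882% lower and 1.74% higher, and DESeq2 called 1463 lower and 1463 higher. At an unadjusted edgeR p under 0.05, 14.7% of them were lower and 16.3% higher. Of 11 fibroblast and progenitor markers, the cells known to make most of this matrix, 8 were negative and 3 positive, with a median of -0.66. EdgeR called 2 lower, Thy1 (log2 fold change -1.70, edgeR adjusted p 0.0337) and Pi16 (-1.89, edgeR adjusted p 0.0499), and 0 higher. The highest log2 fold change was 1.40. At an unadjusted edgeR p under 0.05, 6 were lower and 1 higher, and DESeq2 called 5 lower and 1 higher. The summed level of the 11 was 4954 to 7385 CPM in wild type against 9634 to 16307 in CD44 KO, led by Gsn at 3849 to 6273 and 9130 to 15473 CPM. None of the 11 was at 0 in a library. All 15 macrophage markers were negative, edgeR called 0, DESeq2 called 2, and 2 had an unadjusted edgeR p under 0.05. Their sum was 4470 to 10463 CPM in wild type against 4948, 277 and 914 in CD44 KO replicates 1 to 3. Without CD44 KO replicate 1 edgeR called 32 members and 11 of the 15 macrophage markers lower, beside 1363 of all genes. The part of either cell type in the members' differences was not tested.

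Mature adipocyte markers summed to 19947 to 41683 CPM in wild type against 43108 to 62723 in CD44 KO, with 12 of 14 positive. Of these markers edgeR called 1 higher, Cfd, and DESeq2 called 8 higher and 1 lower. At an unadjusted edgeR p under 0.05, 9 were higher and 1 lower. For all 13829 genes tested, edgeR called 1.74% higher, DESeq2 called 1463 higher and 1463 lower, and 47.8% were negative. At that unadjusted p 16.3% were higher and 14.7% lower. All 12 endothelial markers were positive, with 0 called by edgeR or DESeq2 (1 higher at an unadjusted p under 0.05), and their sum was 989 to 2089 against 1331 to 2528 CPM. All 12 mesothelial markers were positive, edgeR called 1, Krt19, and DESeq2 10. Their sum was 6.57 to 18.8 CPM in wild type against 57.2 to 500 in CD44 KO, highest in replicate 2, and Bnc1 and Muc16 were at 0 in wild type replicate 3. Without CD44 KO replicate 2, the library with epididymis transcripts, the members' median log2 fold change was -0.99. In that fit 32 members were lower at an unadjusted edgeR p under 0.05, and 3 were called lower, beside 36 of all genes. Among those 3 were 2 of the 11 main calls.

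**Figure D5:**
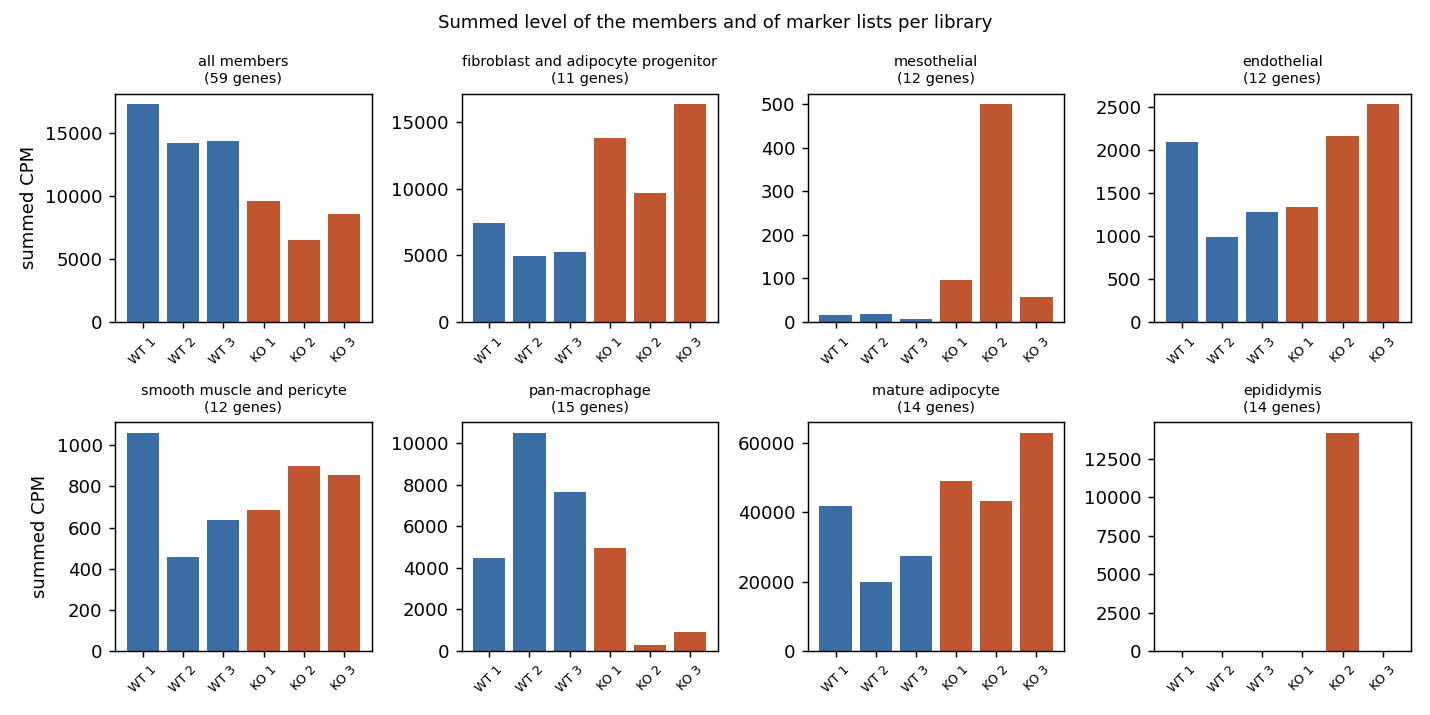
Summed CPM per library (bars from 0, each panel with its own scale) of the 59 members and of 7 marker lists, for 3 wild type and 3 CD44 KO libraries. The members' sum is 14200 to 17274 CPM in wild type against 6548 to 9604 in CD44 KO, and the epididymis genes stand out in CD44 KO replicate 2.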

How the data were processed

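Messenger RNA in 3 wild type and 3 CD44 KO libraries of fat was enriched with oligo(dT) beads and sequenced, per the labels' protocols. Per the submitters' processing notes, HISAT2, StringTie 1.3.1, RSEM and DESeq2 were used, with no role given; genome build, annotation and strand setting: not given in the sources used here. The authors deposited expected counts per gene, not scaled, and FPKM rounded to 2 decimals. A second deposited table holds the same counts rounded to whole numbers (0 genes differ), a log2 fold change of mean FPKM floored at 0.001, and p-values.

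Expected counts were rounded, filtered with filterByExpr, scaled by TMM and tested with edgeR 4.0.16 (R 4.3.3; robust glmQLFit, glmQLFTest) over all 13829 genes kept, with Benjamini-Hochberg adjustment over all of them. SE is the absolute log2 fold change over the square root of F, and 95% intervals use 4 residual degrees of freedom, fewer than the moderated test. Alternatives were DESeq2 1.42.0, limma 3.58.1 on log2 FPKM, other scaling and filtering, a replicate block and leaving out each library. The scripts were checked on simulated data. Members, roles and lists were chosen with earlier results of these data known. Full values were set for all members called, the 2 of lowest p per role and 13 fixed by name (Fn1, Postn, Bgn, Dcn, Lum, Vcan, Tnc, Eln, Fbn1, Lox, Loxl2, Hspg2, Nid1), with up to 4 others per role at the extremes; from other lists, the 2 of lowest p. Members given in full beyond this rule, such as Sparc, Tnxb, Tgfbi and Thbs3, were added after their values were seen. The floor of 3 counts covers counting error only, since PCR reads are not independent molecules.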

Additional observations from a re-analysis of the deposited data

How the results depend on the processing

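The 11 members called lower became 32 with DESeq2, which also called 1 higher, and 0 with a replicate block. Over all genes DESeq2 called 1463 lower and 1463 higher, against 122 and 240 in the main fit. Library totals or no low-count filter left 8, and limma on log2(FPKM + 0.1) or log2(FPKM + 1) gave 15 or 16. Over all genes the lower and higher calls were 109 and 196 with library totals and 85 and 145 without the filter. The limma fits called 181 and 271, or 181 and 255. Leaving out 1 library gave 0 to 32 lower and 0 to 1 higher, beside 0 to 1363 and 0 to 1007 over all genes. Omitting replicate 2 of both genotypes, chosen after seeing the data, left 0 members called and 0 of all genes. The cause was not tested. All 11 stayed negative in every alternative, and the members' median log2 fold change lay between -1.50 and -0.88. For these 11 the sign was fixed beforehand where libraries were left out, since their groups did not overlap. The labels do not say whether equal replicate numbers share a litter, cage or day. Deviations from the group means of same-numbered libraries correlated at -0.32, -0.22 and -0.02, which cannot settle it with so few libraries. With the block edgeR called 0 of all genes in either direction, though 30 members were lower at an unadjusted edgeR p under 0.05. By FPKM 36 members showed no overlap, against 37 by CPM.

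Signs turned for 5 members near 0. With 1 library left out, log2 fold changes ran from -0.32 to 0.44 for Thbs1, -0.39 to 0.10 for Matn2, -0.44 to 0.16 for Hmcn1, -0.29 to 0.38 for Prelp and -0.031 to 0.23 for Lamb1. Hmcn1 also stood at 0.45 and 0.12 on log2(FPKM + 0.1) and log2(FPKM + 1), and at 0.038 when replicate 2 of both genotypes was omitted. Depth limits Thbs4, Acan and Fbn2, which had few counts in any library.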
